A study of Mus musculus with 8 samples.

Results

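Imprinted genes are expressed mainly from the copy inherited from 1 parent. The 35 imprinted genes described here were taken by name and were looked up on the microarray through the RefSeq transcript that each probe was designed to. A probe was named for 34 of them, 58 probes in all, out of 20144 genes and 39429 probes on the array. H19 is not analysed here. By general knowledge, 20 of these 34 genes are grouped here as paternally expressed and 12 as maternally expressed (Grb10 in most tissues). For Gnas and Ddc the imprint depends on the transcript or the tissue. The groups are not specific to the cells studied here, and whether each gene is imprinted in them was not tested. All 34 were well above the scanner's background on at least 1 array, so none was lost to the filter on low signals. The arrays measure the RNA of both copies together and carry no information on which parental copy made it.

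The series holds 8 one-color mouse arrays, 1 per group. Liver cells that were positive for p75NTR (a surface receptor used as a marker of liver mesenchyme) and negative for CD45 and Ter119 were sorted after collagenase digestion at 4 fetal ages, E11.5 and E13.5, then E14.5 and last E17.5, and at P1, just after birth. Adult hepatic stellate cells (adult HSC) were sorted from liver for vitamin A, the lipid these cells store. The 2 arrays from outside the liver held MEF, which are cultured fibroblasts from embryonic skin, and MSC, which are purified mesenchymal stem cells from adult bone marrow. No label gives a mutation, a drug, the strain, the sex or the number of animals pooled for any group, and the age of the adult animals is given only as adult. The sort changes from p75NTR to vitamin A between P1 and adult HSC, so age and sort cannot be told apart in that pair. The 4 fetal arrays lie on slide 1, and P1, adult HSC, MEF and MSC on slide 2. With 1 array per group no difference between 2 arrays has a replicate check, and p-values from fits over several arrays use the spread between different stages or cell types.

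For many imprinted genes, expression from 1 parental copy rests on DNA methylation set in the egg or the sperm at control regions. Such expression can be limited to some tissues or transcripts. Many imprinted genes regulate fetal growth: IGF2 drives it, while the IGF2 receptor, CDKN1C and GRB10 restrain it. Many are abundant in the embryo and the placenta and fall to low levels after birth in most organs. Signals below are log2 levels: the log2 of a probe's signal minus the log2 of its array's 75th percentile, so that 0 is the 75th percentile of that array and 1 unit is 2-fold. Levels of different genes are not compared, since probes differ in brightness.

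Promoter sequences show how closely some of these genes sit and which carry the letters TGCCGC, the core of the motif known for ZFP57, a zinc finger protein that keeps imprints. RefSeq windows of 300 bases around gene starts (250 before, 50 after, build GRCm38.p6) were held for 28 of the genes, 47 windows in all. TGCCGC was found on either strand in 11 of the 47 windows, 23.4%, against 11.6% of all 32851 windows. The 11 include a pair of Mest windows that overlap almost wholly, with 2 matches each, while a further Mest window held 0. The median number of CpG dinucleotides per window was 13 in these and 7 in all windows. A match describes the letters only and is not evidence of binding. The first pair below is from Mest at chr6:30737800-30738099, plus strand, and Plagl1 at chr10:13090582-13090881, plus strand. They are shown because both genes were lower in both adult cell types than on every other array. The third is from Nap1l5 at chr6:58907077-58907376, minus strand, shown because Nap1l5 had its highest level in adult HSC. Where a gene had several windows, the one with most matches is shown. Capitals mark TGCCGC or its reverse complement.
Mest: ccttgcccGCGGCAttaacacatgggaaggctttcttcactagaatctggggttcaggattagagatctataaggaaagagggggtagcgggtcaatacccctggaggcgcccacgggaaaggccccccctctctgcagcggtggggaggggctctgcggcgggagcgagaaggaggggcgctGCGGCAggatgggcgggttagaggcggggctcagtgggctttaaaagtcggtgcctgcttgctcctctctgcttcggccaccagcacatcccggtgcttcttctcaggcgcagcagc
Plagl1: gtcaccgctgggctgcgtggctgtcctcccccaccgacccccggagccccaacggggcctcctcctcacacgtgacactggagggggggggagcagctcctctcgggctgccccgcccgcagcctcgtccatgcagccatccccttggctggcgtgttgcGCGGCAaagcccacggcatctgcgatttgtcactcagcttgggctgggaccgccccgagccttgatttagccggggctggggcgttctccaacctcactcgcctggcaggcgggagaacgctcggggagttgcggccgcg
Nap1l5: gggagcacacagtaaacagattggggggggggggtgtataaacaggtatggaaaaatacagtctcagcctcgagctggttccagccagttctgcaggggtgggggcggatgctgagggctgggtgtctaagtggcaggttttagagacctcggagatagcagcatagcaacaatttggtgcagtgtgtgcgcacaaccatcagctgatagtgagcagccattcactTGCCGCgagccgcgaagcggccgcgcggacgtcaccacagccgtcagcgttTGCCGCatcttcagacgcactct

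Peg3 and Usp29 start head to head, and their windows lie on opposite strands of the same stretch of DNA. The Peg3 window at chr7:6730370-6730669, minus strand, is shown with capitals on the 263 bases that the Usp29 window also covers. The 2 genes are described side by side below.
Peg3: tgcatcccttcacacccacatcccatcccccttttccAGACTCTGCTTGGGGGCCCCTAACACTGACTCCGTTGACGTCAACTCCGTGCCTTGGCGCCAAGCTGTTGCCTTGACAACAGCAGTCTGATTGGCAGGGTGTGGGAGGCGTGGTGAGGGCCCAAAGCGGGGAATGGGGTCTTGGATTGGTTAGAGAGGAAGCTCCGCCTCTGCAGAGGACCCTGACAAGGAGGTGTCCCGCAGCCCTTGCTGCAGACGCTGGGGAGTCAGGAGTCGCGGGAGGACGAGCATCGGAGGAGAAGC

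All arrays had 43020 spots that were not controls, of which 58.8% to 64.5% were well above background and none was saturated. The labelled cell types were checked against markers: 12 of 12 stellate cell markers were well above background on each of the 6 liver arrays, against 9 on the MEF array and 6 on the MSC array. Their log2 summed signal was 7.02 to 8.34 in the p75NTR sorts, 9.87 in adult HSC, 3.80 in MEF and 1.89 in MSC. For this value a list's levels were turned back from log2, added, and the log2 taken, so the brightest genes weigh most. The sorts also held RNA of other cells. Hepatocyte markers had a log2 summed signal of 2.84 at E11.5, 8.59 at E13.5, 10.27 at E14.5 and 6.96 at E17.5. It was 6.26 at P1 and 2.31 in adult HSC. Pancreatic acinar markers summed in the same way to 5.90 at P1 and at most 1.73 on any other array. Fewer cells of a type and less RNA per cell cannot be told apart in such bulk samples.

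More of the imprinted genes were measured well above background in the embryonic and newborn cells than in the adult ones. All 34 were well above background at E13.5, E14.5 and E17.5, 33 at E11.5 and at P1, 32 in MEF, but only 24 in adult HSC and 22 in MSC. Of all spots, 59.3% were well above background at E11.5, 62.0% at E13.5, 61.3% at E14.5, 61.0% at E17.5 and 64.5% at P1. The share was 58.8% in adult HSC, 64.4% in MEF and 61.9% in MSC.

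**Figure D1:**
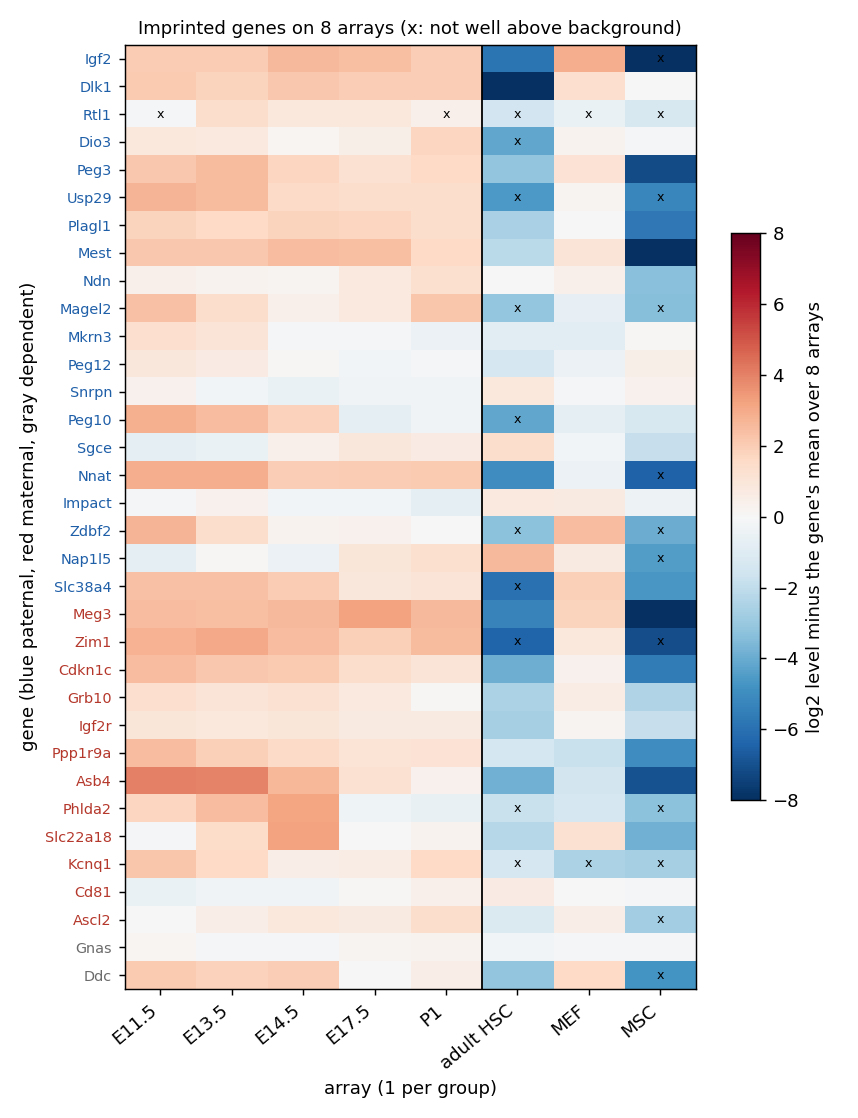
Log2 level of each imprinted gene on each array minus that gene's mean over the 8 arrays, on a color scale from -8 to 8; an x marks a probe not well above background, and the vertical line separates the 5 p75NTR stages from the other cells. Gene names are blue for paternally expressed, red for maternally expressed and gray for those that depend on transcript or tissue. The adult HSC and MSC columns are blue for most genes, while the MEF column is closer to the embryonic liver columns.

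The growth factor gene Igf2, expressed from the paternal copy, was steady through liver development and very low in both adult cell types. Its level was 3.28 at E11.5, 3.33 at E13.5, 3.84 at E14.5, 3.69 at E17.5, 3.24 at P1, -4.56 in adult HSC, 4.15 in MEF and -6.82 in MSC, where it was not well above background. The 5 stages span less than 1 log2 unit, and both adult arrays lie far below all 6 others. Adult HSC had 222-fold less than P1, and MSC at least 2002-fold less than MEF. Igf2r, the maternally expressed receptor that clears IGF2, stood at 3.97, 3.85, 3.92, 3.72 and 3.72 from E11.5 to P1, at 0.30 in adult HSC, 3.20 in MEF and 1.12 in MSC. The ligand and its clearing receptor were thus lower on the same 2 arrays than on the others, Igf2r by 10.7-fold from P1 to adult HSC and by 4.22-fold from MEF to MSC. Grb10, an adaptor that dampens insulin and IGF signaling, had levels of 3.44, 3.16, 3.35, 2.87 and 2.19 over the stages, -0.43 in adult HSC, 2.68 in MEF and -0.32 in MSC. P1 was the lowest of its stages, and adult HSC lay a further 6.16-fold below P1.

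The Dlk1-Meg3 domain has paternally expressed protein genes and a maternally expressed noncoding RNA, and its members did not all go the same way. Dlk1, a transmembrane protein related to Notch ligands that marks fetal liver and adipocyte precursors, had levels of 7.68, 7.39, 7.73, 7.57 and 7.54 from E11.5 to P1, -5.72 in adult HSC, 6.93 in MEF and 5.65 in MSC. Adult HSC was by far the lowest, 9806-fold below P1, while MSC lay 2.43-fold below MEF by this probe. A second Dlk1 probe gave 5.36, 6.04, 6.29, 6.41 and 5.94 over the stages, -8.09 (not well above background) in adult HSC, 4.89 in MEF and 2.85 in MSC. The second probe put MSC lower, at a log2 difference of -2.04 from MEF. Both Dlk1 probes place adult HSC lowest, but they differ in sign from E11.5 to P1, where the first gave -0.14 and the second 0.58. Meg3, the long noncoding RNA of the maternal copy, stood at 5.88, 5.79, 5.99, 6.61 and 5.99 over the stages, -1.94 in adult HSC, 5.20 in MEF and -6.23 in MSC. Meg3 was low in both adult cell types, 244-fold from P1 to adult HSC and 2764-fold from MEF to MSC. Its other 2 probes gave log2 differences of -8.29 and -4.57 for adult HSC minus P1 and of -9.77 and -7.83 for MSC minus MEF. Neither of these 2 probes was well above background in MSC. Dio3, the deiodinase that inactivates thyroid hormone, was at -3.10, -3.18, -3.82, -3.49 and -2.27 over the stages, -8.13 (not well above background) in adult HSC, -3.66 in MEF and -4.05 in MSC. It was at least 27.1-fold lower in adult HSC than at P1 and 1.32-fold lower in MSC than in MEF. Rtl1, a retrotransposon-derived gene, was well above background only at E13.5 (-4.93), E14.5 (-5.53) and E17.5 (-5.47).

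Peg3, a zinc finger gene of the paternal copy, and Usp29, a ubiquitin peptidase gene that starts beside it, were both low in adult HSC and MSC. Peg3 was at 3.54, 3.89, 3.11, 2.60 and 2.97 from E11.5 to P1, -1.77 in adult HSC, 2.53 in MEF and -5.78 in MSC. Usp29 was at -0.81, -0.97, -1.97, -2.09 and -2.13 over the stages, -8.12 in adult HSC and -8.74 in MSC (neither well above background), and -3.29 in MEF. Adult HSC lay 26.8-fold below P1 for Peg3 and at least 29.7-fold for Usp29, and MSC lay 319-fold and at least 25.8-fold below MEF. Zim1, a zinc finger gene of the same cluster that is expressed from the maternal copy, was at 1.20, 1.46, 0.93, 0.32 and 1.002 over the stages, -0.73 in MEF, and not well above background in adult HSC (-7.98) or MSC (-8.65). Zim1 was at least 261-fold lower in adult HSC than at P1. The paternally and maternally expressed genes of this cluster were thus low on the same arrays.

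Plagl1, a zinc finger transcription factor gene, and Mest, which codes for a protein with a hydrolase fold, were among the paternally expressed genes well above background in every cell type by their brightest probe. Plagl1 stood at 7.30, 7.13, 7.27, 7.23 and 6.89 from E11.5 to P1, 2.89 in adult HSC, 5.55 in MEF and -0.19 in MSC. Mest stood at 5.82, 5.86, 6.18, 6.11 and 5.30 over the stages, 1.51 in adult HSC, 4.73 in MEF and -6.004 in MSC. Adult HSC lay 16.0-fold below P1 for Plagl1 and 13.8-fold for Mest. The other 3 Plagl1 probes gave log2 differences of -3.96, -4.37 and -3.75 for that pair, and the other 2 Mest probes -2.92 and -3.14. From MEF to MSC the Plagl1 probes spread more widely, from -5.74 to -1.75, while the 3 Mest probes gave -10.73, -10.94 and -9.10. The last 2 of these Mest values are measured differences with MSC not well above background. Cdkn1c, the maternally expressed inhibitor of cyclin-dependent kinases, had levels of 6.98, 6.68, 6.61, 5.92 and 5.53 over the stages, 0.62 in adult HSC, 4.84 in MEF and -1.12 in MSC. It went down at every step from E11.5 to P1 and was 30.05-fold lower again in adult HSC.

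A transporter gene, a zinc finger gene and genes known from neurons and endocrine cells made up a further group that was low in both adult cell types. Slc38a4, an amino acid transporter, was at 1.85, 1.82, 1.49, 0.41 and 0.54 over the stages, -6.51 (not well above background) in adult HSC, 1.39 in MEF and -5.16 in MSC. Nnat, a small membrane proteolipid of neurons and endocrine cells, was at 2.98, 2.97, 2.09, 2.10 and 2.19 over the stages, -4.85 in adult HSC, -0.37 in MEF and -6.35 (not well above background) in MSC. Adult HSC was at least 132-fold below P1 for Slc38a4 and 131-fold for Nnat. Zdbf2, a zinc finger gene, was at -1.76, -3.05, -4.17, -4.13 and -4.42 over the stages, -2.02 in MEF, and not well above background in adult HSC (-7.77) or MSC (-8.43). Ddc, which makes dopamine and serotonin by decarboxylation, was at 0.31, 0.02, 0.13, -1.86 and -1.28 over the stages, -5.00 in adult HSC, -0.23 in MEF and -6.60 (not well above background) in MSC. Both were lower at the later stages as well as in the adult cells.

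**Figure D2:**
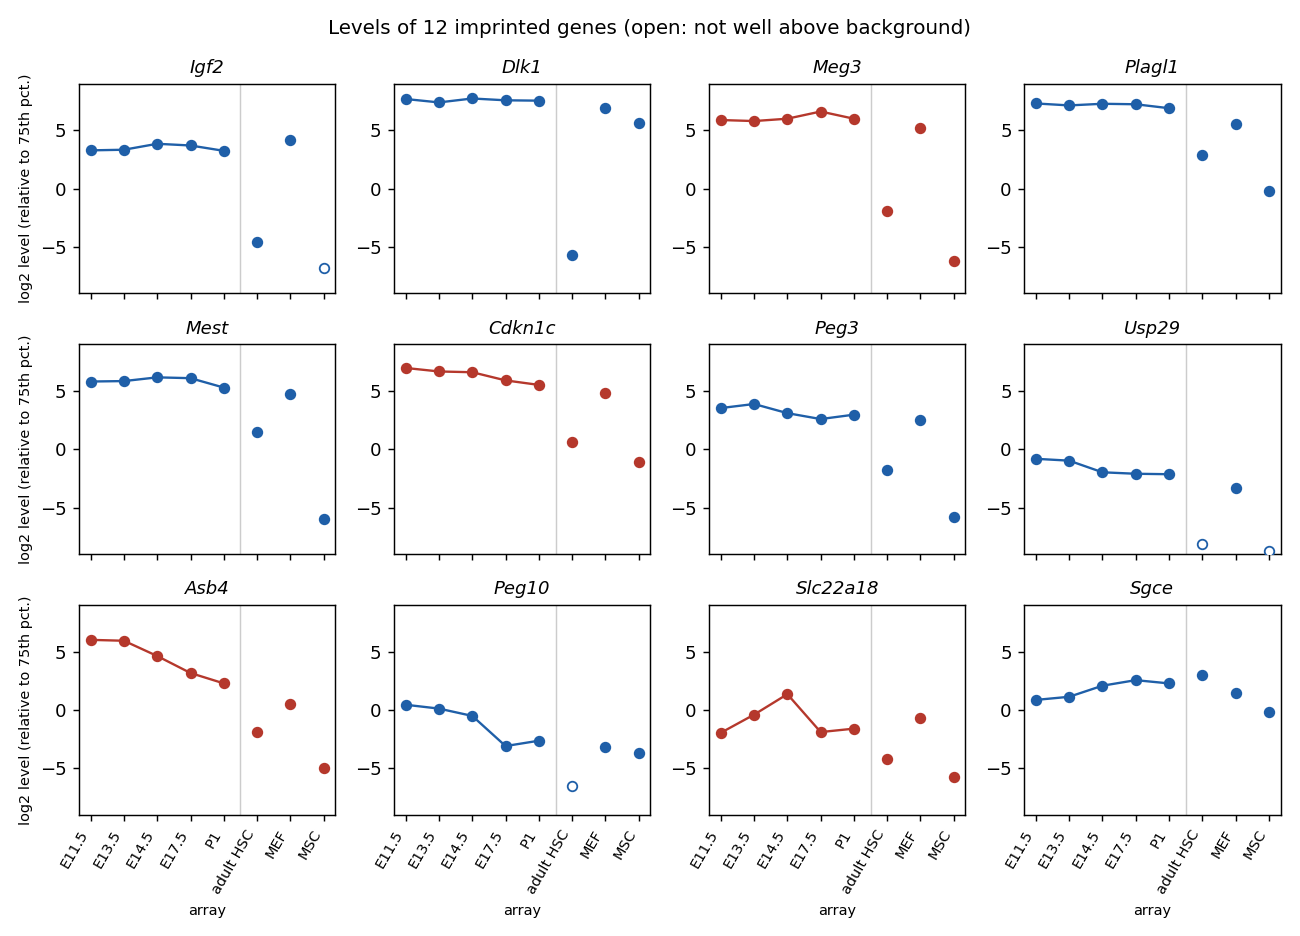
Log2 level (relative to the array's 75th percentile) of 12 imprinted genes on the 8 arrays, 1 point per array; blue is paternally and red maternally expressed, lines join the 5 p75NTR stages, open points were not well above background. Igf2, Meg3, Plagl1, Mest and Cdkn1c are lowest in adult HSC and MSC, Dlk1 is lowest in adult HSC, while Asb4 and Peg10 go down within the fetal stages and Sgce does not follow either pattern.

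Against P1, the last p75NTR stage and an array of the same slide, 23 of 33 imprinted genes tested were at least 4-fold lower in adult HSC and 0 were at least 4-fold higher. Among all 14957 genes 15.9% were at least 4-fold lower and 5.21% higher. The genes lower in adult HSC were 12 of 19 paternally expressed, 10 of 12 maternally expressed, and Ddc. Of these, Dio3, Usp29, Magel2, Peg10, Zdbf2, Slc38a4, Zim1 and Kcnq1 were not well above background in adult HSC. They passed the filter only through P1. Among genes well above background on both arrays, 15 of 24 imprinted genes were at least 4-fold lower, against 894 of all 12693. The median log2 difference of the 33 was -3.42, against -0.06 for all genes tested. At a 2-fold threshold 26 were lower (23.8% of all genes) and 3, Snrpn, Impact and Nap1l5, higher (14.4%). The genes at least 4-fold lower that are not yet described were Magel2, Peg10, Asb4, Ppp1r9a, Slc22a18, Kcnq1 and Ascl2, whose levels are given below. For all 18 genes with more than 1 probe the probes had the same sign in this pair. The split over all genes, 779 higher and 2380 lower, turned to 1661 and 1775 when arrays were scaled to their median signal. That scaling moved the median of all genes to 0.73 and of the imprinted genes to -2.63, with 19 of them at least 4-fold lower and 2, Impact and Nap1l5, higher. The normexp background correction, which lifts low signals, left 14 lower.

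Other cell markers moved with this pair. From P1 to adult HSC 12 of 13 hepatocyte markers, 8 of 8 acinar markers, 4 of 5 mesothelial markers and 9 of 11 cell cycle genes were at least 4-fold lower, and 8 of 12 stellate markers were at least 4-fold higher. The log2 summed signal of the cell cycle genes was 5.17 at P1 and 3.64 in adult HSC. For mesothelial markers it was 2.69 and -3.28. The part of these cells and of cell division in the difference of the imprinted genes was not tested.

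MSC against MEF is a second pair that sets adult against embryonic cells, on the same slide and sharing no array with the first. It was added after the levels had been seen. Here 21 of 32 imprinted genes were at least 4-fold lower in MSC and 0 were at least 4-fold higher, against 15.8% and 3.19% of all 15201 genes. The 21 were 11 of 19 paternally expressed, 9 of 11 maternally expressed, and Ddc, and the median log2 difference was -3.53 against 0.05 for all genes. Of these, Igf2, Usp29, Magel2, Nnat, Zdbf2, Nap1l5, Zim1, Ascl2 and Ddc were not well above background in MSC. They passed the filter only through MEF. Among genes well above background on both arrays, 12 of 22 imprinted genes were at least 4-fold lower, against 1011 of all 12858. With median scaling the split over all genes turned from 485 higher and 2395 lower to 1168 and 1958, and the median of all genes was 0.66 and of the imprinted genes -2.91. The cell cycle genes were not lower in MSC: 9 of 11 were at least 2-fold higher there. Their log2 summed signal was 7.48 in MSC, against 6.30 in MEF. Hepatocyte markers summed to -0.03 in MEF and 0.16 in MSC. Other lists were lower in MSC along with the imprinted genes: at least 4-fold for 5 of 8 leukocyte markers (median log2 difference -3.56), 5 of 7 mesothelial markers (with 1 higher), 5 of 9 stellate markers and 3 of 10 fibroblast markers. The log2 summed signal of leukocyte markers was 3.80 in MEF and 2.39 in MSC, and that of mesothelial markers 0.47 and 3.10. The median level of the mesothelial markers went the other way, from -5.27 in MEF to -7.36 in MSC. The part of these cells was not tested. MEF were cultured, and tissue, culture and age cannot be told apart in this pair.

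Of the 32 imprinted genes tested in both pairs, 19 were at least 4-fold lower in both, which is 86.4% of the 22 lower in adult HSC and 90.5% of the 21 lower in MSC. Among all 14046 genes tested in both, 883 were lower in both, 6.29%, which is 44.8% of those lower in adult HSC and 43.6% of those lower in MSC. The 19 were Igf2, Peg3, Usp29, Plagl1, Mest, Magel2, Nnat, Zdbf2 and Slc38a4 of the paternal group, Meg3, Zim1, Cdkn1c, Grb10, Igf2r, Ppp1r9a, Asb4, Slc22a18 and Ascl2 of the maternal group, and Ddc. Usp29, Magel2, Zdbf2 and Zim1 were not well above background on either adult array, Slc38a4 not in adult HSC. Igf2, Nnat, Ascl2 and Ddc were not well above background in MSC. These counts use the brightest probe of each gene. From MEF to MSC the second Ppp1r9a probe had the opposite sign (0.20), and a second Asb4 probe (-1.20) and the dimmest Plagl1 probe (-1.75) were lower by less than 4-fold. By the brightest probe Dio3, Dlk1 and Peg10 were 4-fold lower in adult HSC and not in MSC, but the second Dlk1 probe was past 4-fold in MSC too (-2.04). Nap1l5 and Ndn were 4-fold lower in MSC and not in adult HSC.

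**Figure D3:**
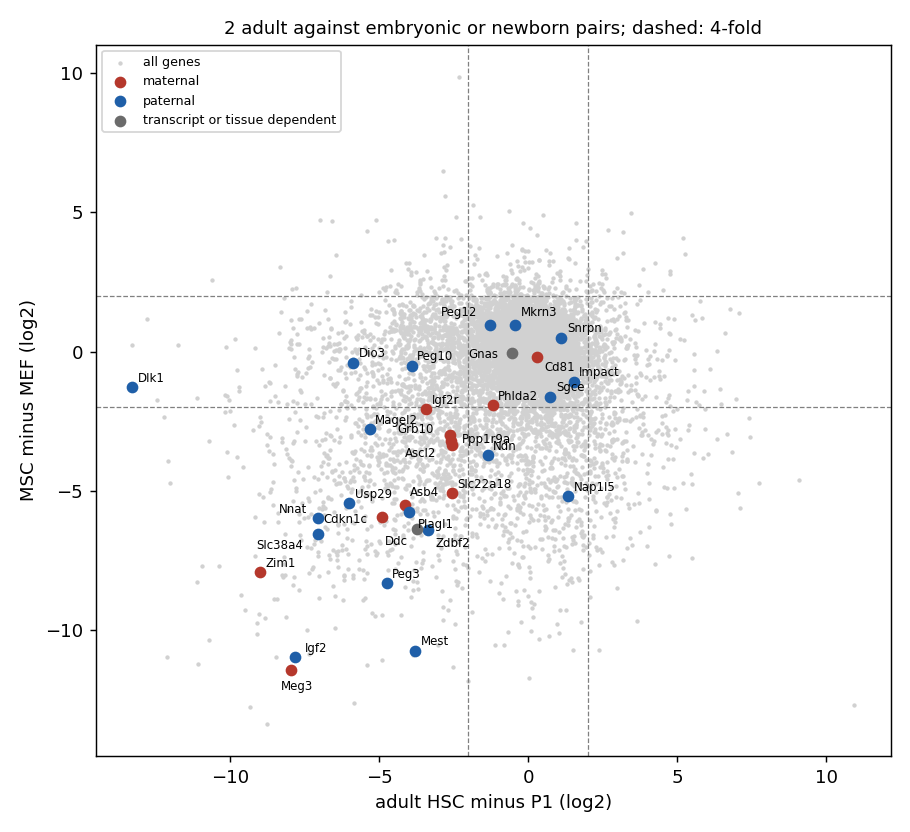
Log2 difference adult HSC minus P1 (x axis) against MSC minus MEF (y axis) for every gene tested in both (gray) and for the 32 imprinted genes (blue paternally expressed, red maternally expressed, dark gray dependent on transcript or tissue); dashed lines mark 4-fold, and values are measured differences also where 1 side was below background. The lower left field holds 19 imprinted genes, and Dlk1 lies far to the left, with MSC 2.43-fold below MEF by the probe shown.

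A fit of the 6 embryonic and newborn arrays (5 stages and MEF) against the 2 adult arrays, also added after the levels had been seen, gave 16 of 34 imprinted genes higher in the embryonic and newborn cells and 0 lower (limma, Benjamini-Hochberg adjusted p under 0.05 over 16537 genes). Among all genes 2.43% were higher and 0.2% lower. Unadjusted p was under 0.05 for 26 of the 34 and for 2485 of the 16537. Among the marker lists the fit called 1 gene, the mesothelial Wt1, and 5 of 8 mesothelial, 5 of 10 erythroid and 3 of 13 hepatocyte markers had an unadjusted p under 0.05. The median log2 difference was 5.50 for hepatocyte, 3.24 for erythroid and 2.79 for mesothelial markers, and 1.80 for cell cycle genes. It was 0.22 to 1.60 for the other marker lists, 3.86 for the imprinted genes and 0.07 for all genes. The part of these cells in the fit was not tested. These arrays are those of the 2 pairs and 4 more, so the fit restates them and its p-values are a description, not independent support. Igf2 differed by 9.28 ± 0.57 (SE, log2; limma adjusted p = 0.000427) and Meg3 by 9.996 ± 0.96 (adjusted p = 0.00245). Cdkn1c differed by 6.34 ± 0.68 (limma adjusted p = 0.00413) and Igf2r by 3.02 ± 0.33 (adjusted p = 0.00427). The other genes called were Zim1, Slc38a4, Peg3, Usp29, Plagl1, Nnat, Mest, Grb10, Ddc, Zdbf2, Magel2 and Ascl2. Dlk1 was not called, at 7.51 ± 2.37 (limma adjusted p = 0.184); its 2 adult levels were -5.72 and 5.65. For 24 of the 34 genes each of the 6 embryonic and newborn arrays lay above both adult arrays, and for 0 below, against 10.3% and 5.95% of all genes. The 24 include Rtl1, whose levels at E11.5, at P1, in MEF and in both adult cell types were not well above background and so have no order.

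Of the 16, Usp29, Magel2, Zdbf2 and Zim1 were not well above background on either adult array and passed the filter only through the embryonic and newborn arrays. With slide 2 alone, which leaves 2 arrays a side, limma called 0 genes of any kind, although 1040 genes, 17 imprinted genes among them, had an unadjusted p under 0.05. With slide as a block 9 of the 16 were called. Leaving out 1 array at a time gave 12 to 21 imprinted genes. Over all genes 435 were called, against 235 without E13.5, 286 without E17.5, 285 without P1, 1560 without adult HSC and 1144 without MSC. Mest lost its call without any of the 5 stages or MEF, and Magel2 without any of the 5 stages or MSC. Ascl2 lost its call without MEF, MSC or any stage other than E11.5, and Zdbf2 without E13.5 or MSC. Without adult HSC Asb4, Dlk1, Nap1l5, Ndn and Ppp1r9a were called as well, without MEF Asb4, Kcnq1 and Ppp1r9a, without MSC Dio3 and Dlk1, and without E14.5 Slc22a18. The share of all called genes that were higher was 92.4% in this fit, 55.0% with median scaling and 78.0% with quantile normalization.

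**Figure D4:**
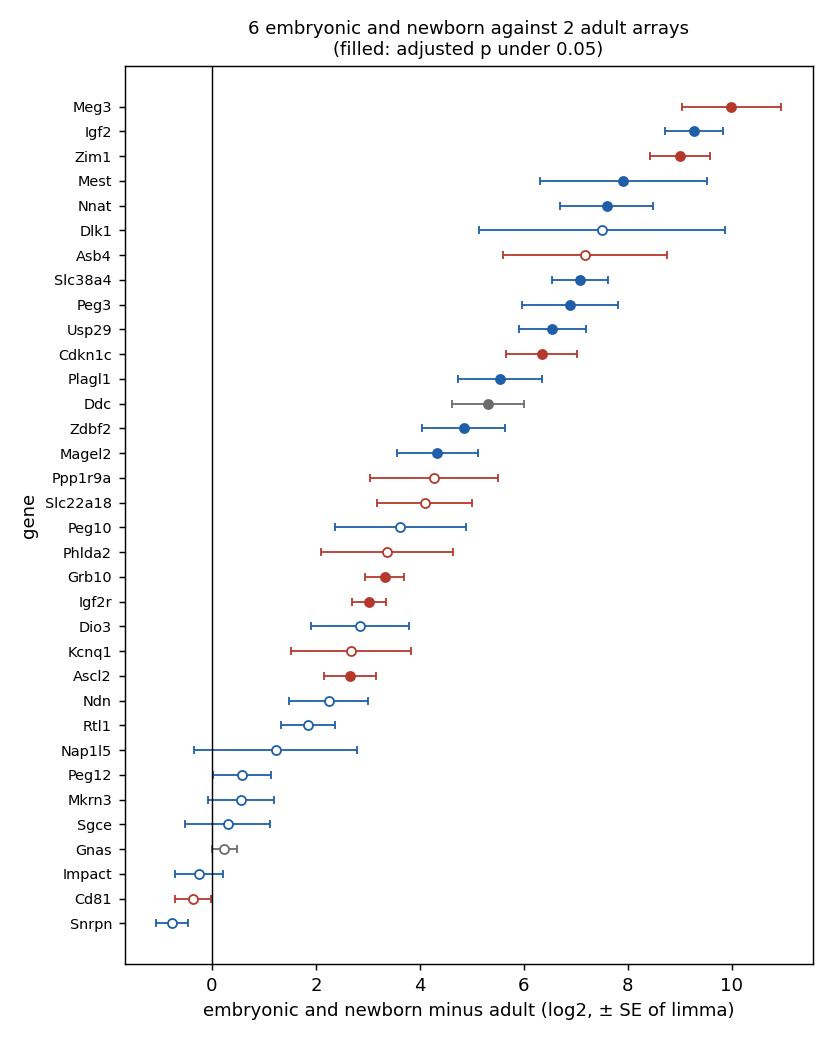
Difference in log2 level between the 6 embryonic and newborn arrays and the 2 adult arrays for each imprinted gene, with the standard error from limma; filled points had an adjusted p under 0.05, blue is paternally, red maternally expressed and gray dependent on transcript or tissue. Meg3, Igf2 and Zim1 are at the top near 9 to 10 log2 units, and Snrpn, Cd81, Impact, Gnas and Sgce lie near 0.

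Not every imprinted gene was lower in adult HSC than at P1. Sgce, which codes for a sarcoglycan of the cell membrane, was at 0.88, 1.15, 2.10, 2.57 and 2.29 from E11.5 to P1, 3.04 in adult HSC, 1.45 in MEF and -0.16 in MSC. Adult HSC was its highest level, although Sgce lies head to head with Peg10. Peg10, a retrotransposon-derived gene of the placenta, was at 0.46, 0.13, -0.49, -3.08 and -2.62 over the stages, -6.53 (not well above background) in adult HSC, -3.14 in MEF and -3.64 in MSC. The neighbors Sgce and Peg10 thus went opposite ways over the stages and in adult HSC. Nap1l5, related to nucleosome assembly proteins, was at -5.00, -4.14, -4.69, -3.23 and -2.95 over the stages, -1.61 in adult HSC, -3.47 in MEF and -8.67 (not well above background) in MSC. It was 2.54-fold higher in adult HSC than at P1 and at least 22.8-fold lower in MSC than in MEF. A second Nap1l5 probe gave 0.56 and -4.13 log2 units for the same differences, with MSC not well above background.

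Cd81, a tetraspanin of the surface of many cells, was at 5.11, 5.39, 5.38, 5.78 and 6.04 over the stages, 6.35 in adult HSC, 5.72 in MEF and 5.54 in MSC. Its 8 levels lie close together, as do those of the brightest Gnas probe, which reads 6.14, 5.89, 5.84, 6.16 and 6.27 over the stages, 5.74 in adult HSC, 5.89 in MEF and 5.85 in MSC. Gnas codes for the stimulatory G protein alpha subunit and has several promoters, some of them imprinted. The other 2 Gnas probes, which are dimmer, did not follow the brightest: adult HSC minus P1 was -1.68 for the first of them and -4.29 for the second, whose level in adult HSC was not well above background. Which Gnas transcripts the 3 probes read was not tested. Impact, a regulator of translation, was at 1.80, 2.30, 1.74, 1.77 and 1.19 over the stages, 2.72 in adult HSC, 2.67 in MEF and 1.59 in MSC. The second Impact probe was well above background only at E17.5, in MEF and in MSC.

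The genes of the Prader-Willi region, all paternally expressed, differed among themselves. Snrpn, a spliceosome protein of neurons, was at -1.40, -2.002, -2.29, -2.07 and -2.06 over the stages, -0.94 in adult HSC, -1.92 in MEF and -1.43 in MSC, so adult HSC was its highest level. Ndn, of the MAGE family, was at 0.84, 0.70, 0.65, 1.25 and 1.73 over the stages, 0.38 in adult HSC, 0.83 in MEF and -2.88 in MSC, which alone was low. Magel2, of the same family, was at -0.79, -1.70, -2.68, -2.36 and -0.90 over the stages, -3.74 in MEF, and not well above background in adult HSC (-6.21) or MSC (-6.53). Magel2 was at least 39.7-fold lower in adult HSC than at P1, against 2.55-fold for Ndn. Mkrn3, a ring finger protein, was at -3.08, -3.36, -4.49, -4.498 and -4.90 over the stages, -5.34 in adult HSC, -5.26 in MEF and -4.32 in MSC. Peg12, related to proteins that bind GSK3, was at 1.59, 1.35, 0.76, 0.47 and 0.61 over the stages, -0.68 in adult HSC, 0.22 in MEF and 1.17 in MSC. Neither Mkrn3 nor Peg12 differed 4-fold in either adult pair. The 2 Mkrn3 probes differed in sign from MEF to MSC (0.94 and -0.08), as did the 3 Snrpn probes (0.49, 0.74 and -0.54, the last not well above background on either array).

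Within the liver, from E11.5 to E17.5 on slide 1, 5 of 34 imprinted genes were at least 4-fold lower at E17.5 and 0 were at least 4-fold higher, against 5.04% and 7.33% of all 14471 genes. They were Peg10 (11.7-fold), Asb4 (7.18-fold), Zdbf2 (5.16-fold), Ddc (4.48-fold) and Phlda2 (4.18-fold). At 2-fold 13 were lower (14.6% of all genes) and 3, Rtl1, Sgce and Nap1l5, higher (15.5%). Asb4, an ankyrin repeat protein of the maternal copy, went down at every step, at 6.03, 5.95, 4.64, 3.19 and 2.30 from E11.5 to P1, then -1.84 in adult HSC, 0.52 in MEF and -4.97 in MSC. Its second probe, which is dimmer, read 0.99, 0.46, -0.45, -1.67 and -2.11 over the same stages. The growth restraint gene Phlda2 was at -2.91, -2.13, -1.45, -4.97 and -5.24 over the stages, -5.97 in MEF, and not well above background in adult HSC (-6.42) or MSC (-7.88).

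From E11.5 to P1, which lie on different slides so that stage and slide cannot be told apart, 4 of 33 were at least 4-fold lower and 1 higher, against 4.22% and 9.68% of all 14956 genes. Asb4 was 13.3-fold, Peg10 8.48-fold, Zdbf2 6.32-fold and Phlda2 5.03-fold lower at P1, and Nap1l5 was 4.13-fold higher. At 2-fold 11 were lower (14.9% of all genes) and 3, Sgce, Nap1l5 and Ascl2, higher (19.3%). Cdkn1c was 2.74-fold and Grb10 2.38-fold lower at P1. The log2 difference P1 minus E11.5 was -0.04 for Igf2 and -0.26 for Igf2r, which have 1 probe each. It ranged over the probes from -0.14 to 0.58 for Dlk1, from -0.12 to 0.58 for Meg3, from -1.02 to -0.41 for Plagl1 and from -1.24 to -0.52 for Mest. The E11.5 array is shared by this pair and the previous one. Hepatocyte markers were at least 4-fold higher for 10 of 13 in both pairs. Mesothelial markers were at least 4-fold lower for 5 of 8 at E17.5 and 2 of 8 at P1, and endothelial markers for 2 of 10 at E17.5 and 5 of 10 at P1. In both pairs 1 mesothelial marker, Msln, and 1 endothelial marker, Clec4g, were at least 4-fold higher. Of the erythroid markers 5 of 10 were at least 4-fold higher and 3 lower at E17.5. At P1 0 of 8 erythroid markers were higher and 3 lower. Cell cycle genes were lower at P1 than at E11.5 by at least 2-fold for 11 of 11. Their log2 summed signal was 7.16 at E11.5 and 5.17 at P1. The part of these cells and of cell division in the lower levels of Asb4, Peg10, Zdbf2 and Phlda2 was not tested.

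A straight line over the 5 stages called 0 of 34 imprinted genes and 0 of all 15550 genes (0% called; limma adjusted p under 0.05), while 16 imprinted genes and 4361 genes in all had an unadjusted p under 0.05. With a trended, robust prior limma called 1145 genes, and Asb4, Cdkn1c, Peg10 and Ppp1r9a among the imprinted genes, all downward. Over genes above background on all 5 arrays it called 623, with Asb4 and Mkrn3, both downward. Asb4 changed by -1.02 ± 0.12 log2 units per stage (SE; limma adjusted p = 0.059), Peg10 by -0.94 ± 0.20 (adjusted p = 0.0858) and Sgce by 0.43 ± 0.11 (adjusted p = 0.101). Of the 33 imprinted genes above background at all 5 stages, Usp29, Mkrn3, Cdkn1c and Asb4 were lower at each step than the one before, and 0 were higher at each step, against 7.94% and 3.23% of all genes. For Mkrn3 this holds by the brightest probe only. Its second probe read -3.44, -3.29, -4.37, -4.85 and -4.69 over the stages. Slide 1 alone also called 0 genes.

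Slc22a18, a transporter gene beside Phlda2, peaked in mid-gestation. It was at -1.94, -0.38, 1.37, -1.88 and -1.59 over the stages, then -4.15 in adult HSC, -0.64 in MEF and -5.72 in MSC. Phlda2 had its highest level at E14.5 too. The summed hepatocyte markers were also highest at E14.5, at 10.27, and their part in these peaks was not tested. Kcnq1, a potassium channel of the same region, was at -3.85, -4.49, -5.53, -5.44 and -4.44 over the stages and not well above background in adult HSC (-7.39), MEF (-8.58) or MSC (-8.73). Ascl2, a transcription factor of the trophoblast, was at -3.75, -3.19, -2.85, -2.97 and -2.32 over the stages, -4.88 in adult HSC, -3.17 in MEF and -6.51 (not well above background) in MSC. The maternally expressed genes of this region thus peaked at different stages.

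Between the 6 liver-derived arrays and MEF with MSC, limma called 0 of 34 imprinted genes, and 260 of 16537 genes (1.57%, of which 0.847% higher and 0.726% lower in the liver). Unadjusted p was under 0.05 for 3 of the 34, Ppp1r9a, Kcnq1 and Asb4, and for 3242 of the 16537, a larger share. Ppp1r9a, the actin-binding neurabin, had 2.29, 1.74, 1.31, 0.94 and 0.97 over the stages, -1.61 in adult HSC, -1.96 in MEF and -5.16 in MSC, so that every liver array lay above both others. Its difference was 4.501 ± 1.12 (SE, log2; limma adjusted p = 0.107). Its second probe gave 2.44, with adult HSC at -5.78 (not well above background), MEF at -5.64 and MSC at -5.44. That probe thus does not show every liver array above both others. Kcnq1 differed by 3.46 ± 0.85 (limma adjusted p = 0.104), with adult HSC, MEF and MSC all not well above background, so no fold is given. By the brightest probe the liver arrays lay above both others for 2 of 34 imprinted genes, Ppp1r9a and Kcnq1, and for 12.8% of all genes. For Kcnq1 that order is not measured, since its adult HSC level is below background. Without adult HSC Ppp1r9a was called (limma adjusted p = 0.0325, 524 genes in all). Kcnq1 was called there too, but it passed the filter only through the liver arrays where it is high, so its call is no support. Without MEF, which leaves MSC alone on that side, the median difference of the imprinted genes was 4.06. Without MSC 0 imprinted genes were called, and their median difference was 0.12, against 1.88 with all arrays. The count over all genes was 95 without E13.5, 90 without E14.5, 86 without E17.5 and 170 without P1.

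A wider list of 48 other imprinted genes had 43 named on the array. From P1 to adult HSC 10 of 39 tested were at least 4-fold lower and 4 higher, against 15.9% and 5.21% of all genes. Their median was -0.10, close to all genes. Mirg, a microRNA host RNA of the Dlk1-Meg3 domain, was at 3.78, 4.32, 4.54, 4.30 and 3.21 over the stages, -2.90 in adult HSC, 3.77 in MEF and -3.32 in MSC. It was low on the same 2 arrays as Meg3. Begain, at the edge of that domain, was at 1.95 at P1, -8.06 (not well above background) in adult HSC, 0.89 in MEF and -0.84 in MSC. Klf14 and Cobl were at least 128-fold and 81.4-fold, and Smoc1 at least 63.8-fold, lower in adult HSC. The 4 genes higher in adult HSC were Peg13, Pon2, Jade1 and Zrsr1; Peg13 was at 1.84 at P1 and 4.63 in adult HSC, the highest of its 8 levels. In the fit of embryonic and newborn against adult arrays 3 of 41 were higher (Klf14, Mirg and Smoc1) and 2 lower (Jade1 and Pon2). The shares over all genes were 2.43% and 0.2%. Ins2, an insulin gene imprinted in the yolk sac, was at -1.38 at E17.5 and 1.51 at P1, on the array where acinar markers summed to 5.90. The part of pancreatic cells in the Ins2 level was not tested. From MEF to MSC 7 of 39 of this list were lower, led by Zrsr1 (at least 145-fold), Mirg (136-fold), Smoc1 (at least 74.7-fold) and Klf14 (at least 45.9-fold), and Jade1 and Tfpi2 were higher. Among all genes 15.8% were at least 4-fold lower and 3.19% higher in that pair. From E11.5 to E17.5 5 of 38 were higher and 3 lower, against 7.33% and 5.04% of all genes. Qpct (21.4-fold), Htr2a (at least 12.2-fold) and the matrix proteoglycan gene Dcn (9.63-fold) were higher at E17.5, and Calcr (at least 5.11-fold), Ampd3 and Cobl lower. From E11.5 to P1 8 of 41 were higher, led by Ins2 (36.7-fold), Htr2a (at least 12.3-fold) and Qpct (13.47-fold), and 3 lower, Ampd3 (at least 8.85-fold), Cobl and Calcr. Over all genes the shares were 9.68% higher and 4.22% lower. Between liver-derived and other arrays only Tnfrsf23 of this list was called, with a difference of -5.11 ± 0.62 (SE, log2; limma adjusted p = 0.0126). That fit called 1.57% of all genes.

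Of 17 genes that set or keep imprints, 16 were named. In adult HSC 2 of 15 tested were at least 4-fold lower than at P1 and 0 higher, against 15.9% and 5.21% of all genes. The 2 lower regulators were Uhrf1, which guides maintenance methylation (2.50 at P1 and -2.06 in adult HSC), and Hells, a chromatin remodeler (-3.13 at P1 and -7.72, not well above background, in adult HSC). Both are also genes of dividing cells. In MSC Uhrf1 was at 4.38 and Hells at 0.88. The maintenance methyltransferase Dnmt1 was at 1.17, 0.96, 0.57, 0.19 and -0.38 over the stages, -1.16 in adult HSC, 0.28 in MEF and 1.57 in MSC. Zfp57 was at -1.30, -1.31, -1.64, -1.83 and -2.40 over the stages, -2.79 in adult HSC, -1.49 in MEF and -0.75 in MSC. Both had their highest level in MSC. In MSC against MEF 1 of 15 regulators was at least 4-fold higher, Hells (7.66-fold), and 1 lower, the de novo methyltransferase Dnmt3a (8.10-fold). The shares over all genes in that pair were 3.19% and 15.8%. From E11.5 to P1 Uhrf1 (4.41-fold) and Hells (4.07-fold) were lower and 0 of 15 higher, against 4.22% and 9.68% of all genes. From E11.5 to E17.5 0 of 14 differed 4-fold, against 5.04% lower and 7.33% higher among all genes. In the fit of embryonic and newborn against adult arrays limma called 0 of these 16, 1 of them with an unadjusted p under 0.05. Over all genes it called 2.43% higher and 0.2% lower.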

How the data were processed

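Total RNA of 8 sorted or cultured mouse cell populations was labelled with Cy3 and hybridised to 1 one-color Agilent array each. Intensity values are spot signals after background subtraction by Agilent Feature Extraction 11.5.1.1, per the file headers, not scaled across arrays. The log2 values the authors deposited are such signals scaled to each array's 75th percentile, per the labels, and served as an alternative. They are not centred per gene, and after a constant offset of -0.103 to -0.150 per array 93.2% to 100% of probes matched the levels used here within 0.02. The columns of that table had medians of -4.48 to -3.55.

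Levels are log2 signal minus the log2 75th percentile over spots that are not controls. Outlier spots were left out and repeat spots averaged by probe. Names came from transcript accessions in RefSeq (GRCm38.p6), which named 67.4% of probes. The scanner files used here give no gene name, and the array rests on another build, so probe positions are not given. Of several probes the one with the highest mean over the 8 arrays stands for the gene. A gene was tested if any array compared held it well above background, and limma 3.58.1 in R 4.3.3 was fitted over all such genes (adjusted p under 0.05); pairs of arrays have no test, and 4-fold and 2-fold differences were counted. Where 1 side was not well above background, "at least" gives the bright level over the higher of that side's level and the lowest signal well above background there. The fit of liver-derived against other arrays and the slope over the stages were run on simulated data. The fit of embryonic and newborn against adult arrays was not.

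The members, lists and comparisons were chosen with earlier results of these data known. All members with a probe are named. Of the other imprinted genes and the regulators up to 4 with the largest change per comparison, those in counts of 5 or fewer, and a few chosen after their values were seen (Dnmt1 and Zfp57) are named. Alternatives were normexp (offset 50, on median spot brightness, since the files give no mean), median and quantile scaling, the mean of all probes, each probe apart, the authors' table, filters, a floor, slide, and leaving out arrays. Promoter windows are RefSeq's. The number of arrays, not read depth, limits precision.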

Additional observations from a re-analysis of the deposited data

How the results depend on the processing

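No paired analysis was possible because each group has 1 array. By the brightest probe or the mean of all probes, no called imprinted gene changed sign under any alternative run. With each probe apart the second Ppp1r9a probe had the opposite sign from MEF to MSC (0.20, against -3.20 by the brightest). The pairs' counts stayed within 1.5 times with quantile scaling, the authors' table, no filter or a floor. The exception was Nap1l5, 1 imprinted gene higher from E11.5 to E17.5 with quantile scaling.

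With normexp correction the counts of genes at least 4-fold apart were 1044 (from 3159) for adult HSC against P1, 826 (from 2880) for MSC against MEF, 594 (from 2078) for P1 against E11.5 and 514 (from 1791) for E17.5 against E11.5. Imprinted genes lower were then 14 in adult HSC, 2 at P1 and 2 at E17.5, and 0 were higher at P1. The fits called 33 genes (from 435) for embryonic and newborn against adult (age fit), 8 of them imprinted, and 52 (from 260) for liver against other cells. Restricting to genes above background on every array gave 1502, 1259, 1125 and 1007 genes for the same 4 pairs, 15 imprinted genes lower in adult HSC and 12 in MSC. It gave 69 genes (6 imprinted) in the age fit, 157 in the liver fit and 623 (2 imprinted, lower) for the slope. At 2-fold the pairs gave 5712, 5840, 5111 and 4368 genes. From E11.5 to P1, 11 imprinted genes were then lower and 3 higher, from E11.5 to E17.5 13 and 3, and 3 were higher in adult HSC.

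Taking each probe apart, 40 probes of imprinted genes were lower in adult HSC, 35 in MSC, 8 at P1 and 9 at E17.5, and 25 were higher in the age fit. Median scaling left 2 imprinted genes higher in adult HSC and 0 at P1, and the mean of all probes also left 0 at P1. Slide as a block gave 229 genes (9 imprinted) in the age fit and 72 in the liver fit. Slide 2 alone gave 0 genes in both, with 1040 and 1453 at an unadjusted p under 0.05. The 5 p75NTR arrays alone against MEF and MSC gave 524 genes, 2 of them imprinted. Quantile scaling gave 107 genes for the slope, and a trended, robust prior 1145 (4 imprinted, lower). Leaving out 1 array at a time gave 235 to 1560 genes in the age fit (12 to 21 imprinted), 86 to 1283 in the liver fit (0 to 3 imprinted) and 0 for the slope.

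No group has a replicate, so spread within a group is unknown. Spots well above background made up 58.8% to 64.5%, and levels below that have no order.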
